A study of Drosophila melanogaster with 9 samples.

Results

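Transcripts of 9 heat shock chaperone genes were followed in heads of control, Ime4 heterozygous and Ime4 homozygous flies. The genes were matched by their FlyBase symbols: Hsp22, Hsp23, Hsp26, Hsp27, Hsp67Bc, Hsp68, Hsp83, Hsc70-4 and DnaJ-1, which are 9 of the 17558 genes counted. All 9 symbols were found, and 8 of them had enough reads to be tested. Hsp22 had 0 reads in every library and is taken up with its neighbours below.

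Chaperones bind other proteins while these fold or when heat and other stress unfold them. Small heat shock proteins hold unfolded clients without using ATP, Hsp70 proteins refold them in an ATP-driven cycle that J-domain proteins such as DnaJ-1 start, and Hsp90, encoded in flies by Hsp83, completes the folding of kinases and receptors. When unfolded proteins build up, the heat shock factor Hsf forms trimers and switches the inducible genes on. Hsc70-4 is the cognate Hsp70 that cells make at normal temperature.

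Poly(A) RNA was sequenced from heads of adult Drosophila melanogaster females that had been raised at 25 °C and 60% humidity and were 1 to 2 days of age. The groups were wild-type controls, Ime4 heterozygotes and Ime4 homozygotes, with 3 libraries each. Ime4 encodes the enzyme that writes N6-methyladenosine (m6A) into mRNA, and the series asks about m6A in neurogenesis and sex determination. No heat treatment is mentioned in the labels, and the Ime4 allele, the number of heads pooled and the origin of the replicates are not given in the sources used here, so p-values measure only the spread between these libraries, which may be technical.

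Each library held between 2730289 and 4272550 reads in genes. Levels are CPM, read counts scaled by the depth of the library with TMM factors, and differences are log2 fold changes, with a standard error (SE), from edgeR's quasi-likelihood test, with p-values adjusted by Benjamini-Hochberg over 8972 tested genes and called under 0.05. Ime4, listed as Mettl3, had 17, 19 and 18 reads in control, 8, 13 and 16 in the heterozygous and 3, 3 and 2 in homozygous libraries, and in homozygous flies its log2 level fell by 3.00 ± 0.45 against control (edgeR adjusted p = 5.56e-04). Head markers were abundant, with 19294 to 27529 CPM summed over 6 photoreceptor genes and 3771 to 6100 over 5 neuronal genes. Some libraries stood apart. Summed over 9 ovary genes control replicate 3 held 344 CPM and the others 1.198 to 9.65, and over 12 digestive genes homozygous replicates 1 and 2 held 634 and 770 CPM and the others 17.3 to 77.8. The 6 muscle genes summed to between 29342 and 30293 CPM in heterozygous, 17692 and 20771 in control and 18846 and 24134 in homozygous libraries. Results are given with and without the 3 libraries that held ovary or digestive transcripts where that changed them.

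Hsp67Bc was the one member whose transcript differed between genotypes past the threshold, and it was higher in both Ime4 groups than in control. It rose 2.19-fold in homozygous and 1.78-fold in heterozygous flies. None of the other 7 tested members passed in any comparison, although 4 of them, Hsp26, Hsp27, Hsp68 and DnaJ-1, varied several-fold between libraries of the same genotype. In homozygous against control flies 1 of 8 members was called, where 19.7% of all tested genes were called, 10.9% of them higher and 8.77% lower. In heterozygous against control flies 1 of 8 was called, against 9.32% of all genes (5.55% higher, 3.77% lower). In homozygous against heterozygous flies edgeR called 0 of 8, against 5.48% of all genes (3.38% higher, 2.11% lower). There 3 of 8 had an unadjusted p under 0.05, DESeq2 called 1 and limma-voom 0. These shares of members are near the background.

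Leaving out the libraries with ovary or digestive transcripts changed this count. Without control replicate 3 and homozygous replicates 1 and 2, homozygous replicate 3 was alone in its group and assumed to vary like the others. That choice dropped the highest control library of 7 of 8 members and kept the homozygous library that was highest in 5 of 8. Higher values against control were thus partly set by the choice, and members that vary together are not separate observations. The highest log2 values in homozygotes against control were 1.52 for Hsp26, 1.42 for Hsp68, 1.14 for Hsp67Bc, 1.09 for DnaJ-1 and 0.54 for Hsc70-4. In the same fit 4 of 8 rose in heterozygotes against control (14.5% of all genes), and these were Hsp68 (1.71), Hsp26 (1.17), DnaJ-1 (0.70) and Hsp83 (0.57), with edgeR adjusted p between 4.62e-04 and 0.0478. The opposite choice, leaving out homozygous replicate 3, gave 4 of 8 members lower in homozygotes than in heterozygotes, where 12% of all genes were called: Hsp68 (-2.26), Hsp26 (-1.52), DnaJ-1 (-1.51) and Hsp83 (-0.90), with edgeR adjusted p between 3.29e-04 and 0.0229.

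The median log2 fold change of the 8 members was -0.15 for homozygotes and 0.46 for heterozygotes against control, and -0.59 for homozygotes against heterozygotes, beside medians of 0.02, -0.01 and 0.02 over all tested genes. All 8 members had a value above 0 in heterozygotes against control, and 3 had one in homozygotes against control. Against heterozygotes, 2 had one above 0 in homozygotes. The first 2 comparisons share their control libraries, the last 2 their heterozygous libraries, and the first and last their homozygous libraries. These medians and signs are therefore not independent observations. Libraries of both groups did not overlap for 1 member in homozygous against control (Hsp67Bc, higher), where 33.7% of all genes did not overlap, for 2 in heterozygous against control (Hsp67Bc and Hsp68, higher; 31.7% of all genes) and for 1 in homozygous against heterozygous (Hsp83, lower; 26% of all genes).

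**Figure D1:**
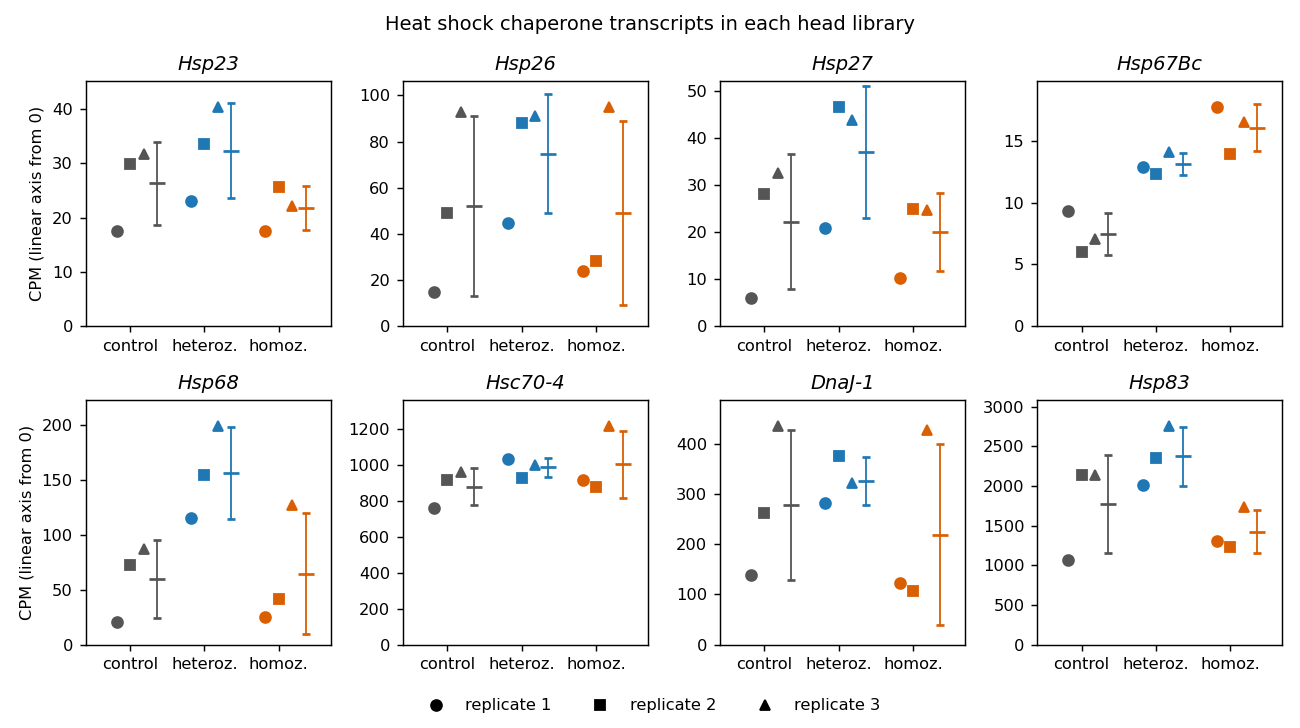
Level of each tested member in CPM (linear axes from 0) in the 9 libraries; circles, squares and triangles are replicates 1, 2 and 3, and the bar beside them is the group mean with its SD (n = 3). Hsp67Bc is higher in every heterozygous and homozygous library than in the 3 control libraries, while Hsp26, Hsp27, Hsp68 and DnaJ-1 are at or near their lowest in control replicate 1.

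**Figure D2:**
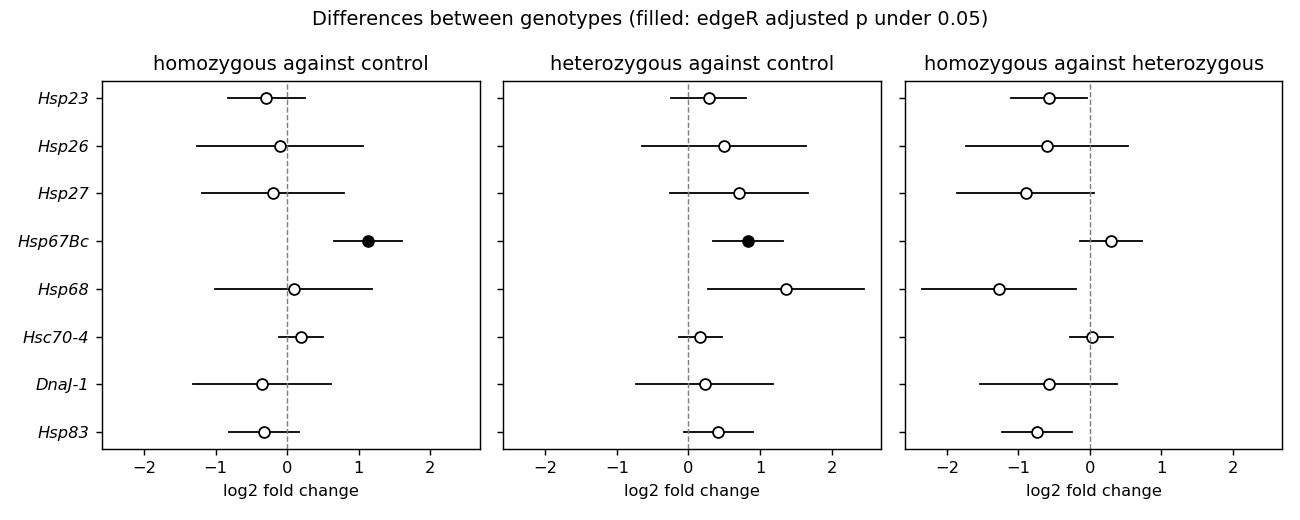
Log2 fold changes of the 8 tested members in the 3 comparisons, with 95% confidence intervals from the fit; filled points have an edgeR adjusted p under 0.05. The 2 filled points are Hsp67Bc in homozygous (1.13) and heterozygous (0.83) against control flies, and the intervals of Hsp26, Hsp27, Hsp68 and DnaJ-1 are the widest.

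Among the small heat shock proteins, Hsp67Bc encodes a chaperone that in flies works with the BAG-domain protein Starvin in the autophagic removal of misfolded proteins. Its level was 9.29, 5.96 and 7.04 CPM in control replicates 1, 2 and 3, 12.9, 12.3 and 14.1 in the heterozygous and 17.7, 13.97 and 16.5 in homozygous libraries. Control libraries were thus the lowest 3 of 9, and the ranges of both Ime4 groups met at 13.97 and 14.1. The counts behind these levels were small, with 21 to 25 reads per control library, 44 to 46 per heterozygous and 50 to 74 per homozygous library.

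Homozygous against control flies differed by 1.13 ± 0.22 on the log2 scale (SE, 95% interval 0.66 to 1.603; edgeR adjusted p = 0.00315). That call held in all 20 alternatives that were run, with values between 0.93 and 1.30. It was as large without homozygous replicates 1 and 2, at 1.146, where 1 homozygous library is left and is assumed to vary like the other groups, and at 1.14 when control replicate 3 was left out as well. Heterozygous against control flies differed by 0.83 ± 0.23 (95% interval 0.35 to 1.32; edgeR adjusted p = 0.0351), a call near the threshold. It was lost with DESeq2 (adjusted p = 0.0690) and, in edgeR, after a correction for exon length (0.71, adjusted p = 0.0756). It was also lost in edgeR without control replicate 2 (0.69, adjusted p = 0.142) or 3 (0.80, adjusted p = 0.0965), and without heterozygous replicate 1 (0.84, adjusted p = 0.0909), 2 (0.87, adjusted p = 0.0724) or 3 (0.79, adjusted p = 0.117). Without homozygous replicates 1 and 2 and control replicate 3 it was 0.81, with edgeR adjusted p = 0.0570. Homozygous and heterozygous flies differed by 0.30 ± 0.20 (95% interval -0.14 to 0.74; edgeR adjusted p = 0.434). In bulk heads a change in RNA per cell and a change in the number of cells that express the gene cannot be told apart. Summed neuronal markers moved the other way, with 5405 to 6100 CPM in control, 4396 to 4682 in the heterozygous and 3771 to 4302 in homozygous libraries. The 4 glial markers summed to 4316 to 4840 CPM in control, 4851 to 5480 in the heterozygous and 4958 to 6332 in the homozygous libraries. By this sum every library of both Ime4 groups was above every control library. Taken singly, 2 of the glial markers had a log2 value above 0 and 2 below 0 in heterozygotes against control. For homozygotes against control 3 were above 0 and 1 below, and edgeR called 0 of them in both comparisons. The 5 fat body markers summed to 4070 to 6039 CPM in control, 6857 to 10820 in the heterozygous and 3248 to 8989 in the homozygous libraries. Singly, 4 of the fat body markers had a log2 value above 0 and 1 below 0, at -1.90, in heterozygotes against control. In homozygotes against control 5 were above 0, and edgeR called 2 higher in each of these comparisons. The part of these cell types in the result was not tested.

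Hsp23, Hsp26 and Hsp27 encode small heat shock proteins that heat and the moulting hormone ecdysone induce, and none of the 3 was called. Hsp26 had 14.9, 48.8 and 92.7 CPM in control replicates 1, 2 and 3, 44.9, 87.9 and 91.1 in the heterozygous and 24.0, 28.2 and 94.9 in homozygous libraries. The highest control and the highest homozygous library were thus at about the same level as the upper heterozygous libraries, and the 3 groups overlapped. Its homozygous against control value was -0.10 ± 0.54 on the log2 scale (95% interval -1.26 to 1.06; edgeR adjusted p = 0.919) and its heterozygous against control value 0.50 ± 0.53 (95% interval -0.65 to 1.64; edgeR adjusted p = 0.629). The first changed sign when single libraries were left out, at 0.59 without control replicate 3, 0.21 without homozygous replicate 1 and 0.15 without homozygous replicate 2.

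Hsp27 was at 5.95, 28.1 and 32.6 CPM in control, 20.8, 46.5 and 43.7 in the heterozygous and 10.3, 24.9 and 24.6 in homozygous replicates 1, 2 and 3. In each genotype replicate 1 was the lowest. The log2 value was -0.19 ± 0.46 for homozygous against control (edgeR adjusted p = 0.812), 0.70 ± 0.45 for heterozygous against control (adjusted p = 0.378) and -0.90 ± 0.45 for homozygous against heterozygous (adjusted p = 0.278). Hsp23 had 17.5, 29.8 and 31.7 CPM in control, 23, 33.6 and 40.4 in the heterozygous and 17.5, 25.7 and 22.1 in homozygous libraries, again with replicate 1 lowest in each genotype and with overlapping groups. Its log2 values were -0.29 ± 0.25 for homozygous against control (95% interval -0.83 to 0.25; edgeR adjusted p = 0.455), 0.28 ± 0.25 for heterozygous against control (adjusted p = 0.545) and -0.57 ± 0.25 for homozygous against heterozygous (adjusted p = 0.210).

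These genes lie together on chromosome arm 3L in BDGP6, within 14.184 kb. Hsp67Bc covers 9371511 to 9372497 on the reverse strand, and Hsp22 follows at 9372931 to 9374964 on the forward strand. Hsp26 covers 9376418 to 9377427 (reverse), Hsp23 9381882 to 9382765 (forward) and Hsp27 9384063 to 9385694 (forward), with CG4461 and Hsp67Ba, 2 more genes of small heat shock proteins, between them. All 1900 exonic bases of Hsp22 also lie in exons of CG4456 on the same strand, so a read from them could not be given to 1 gene. CG4456 itself had 1 read in all 9 libraries together. The level of Hsp22 therefore could not be measured from these counts, and its 0 says nothing about its expression.

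Of the other neighbours in the cluster, Hsp67Ba was at 81.5 ± 19.5 CPM in control, 66.2 ± 16.4 in the heterozygous and 71.4 ± 16.0 in homozygous flies, and CG4461 at 19.0 ± 3.78, 23.4 ± 3.79 and 15.3 ± 6.04 (SD, n = 3). Neither of the 2 was called in any comparison, and differences between neighbours in the cluster were not tested.

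**Figure D3:**
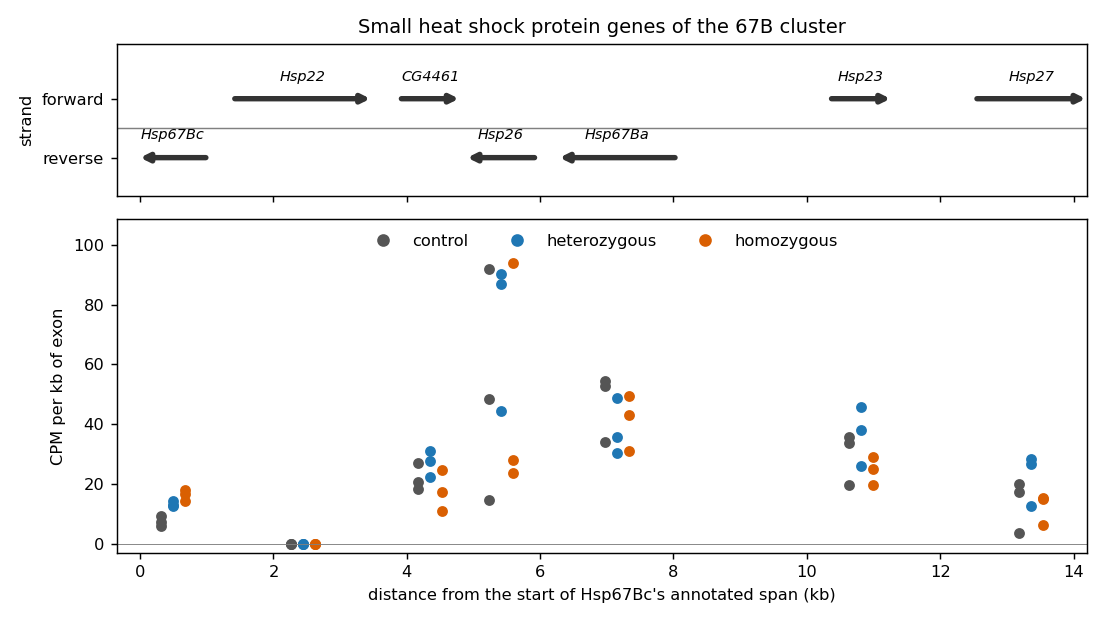
Upper panel, the genes of the 67B cluster as arrows by strand, placed by distance in kb from the start of the annotated span of Hsp67Bc; lower panel, CPM per kb of exon for each library (3 points per genotype). Levels of Hsp67Bc are low and close together within a genotype, those of Hsp26 spread from 14.7 to 93.9, and Hsp22 is at 0 throughout.

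Of the Hsp70 system, Hsp68 showed the highest heterozygous to control ratio among the members, without passing the test. Hsp68 is a heat-inducible Hsp70 protein. Its level was 20.1, 72.1 and 87.4 CPM in control replicates 1, 2 and 3, 115, 155 and 199 in the heterozygous and 24.7, 41.1 and 127 in homozygous libraries. Every heterozygous library was above every control library, whereas homozygous replicate 3 lay among the heterozygous libraries and homozygous replicates 1 and 2 among the control ones. The 6 muscle markers were also higher in the 3 heterozygous libraries, at 29342 to 30293 CPM against 17692 to 20771 in control, and the same holds beside the heterozygous values of the inducible Hsp70 copies, Hsc70-1 and stv described below. The part of muscle in these results was not tested.

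Heterozygous against control flies differed for Hsp68 by 1.37 ± 0.51 on the log2 scale (95% interval 0.28 to 2.45; edgeR adjusted p = 0.116). The difference passed in edgeR when only the 6 libraries of both groups were fitted (1.36, adjusted p = 0.00323), with no low-count filter (adjusted p = 0.00454), without homozygous replicate 3 (1.36, adjusted p = 0.00334) and without homozygous replicates 1 and 2 (1.37, adjusted p = 0.00525). In these fits the fold change stayed the same and the estimate of the spread was smaller. It also passed in edgeR without homozygous replicates 1 and 2 and control replicate 3, at 1.71, and with the replicate number as a block. The remaining alternatives did not call it, and with DESeq2 0 members passed in this comparison. Over the 9 edgeR fits that left out 1 library the value ranged from 0.97 to 1.73, with adjusted p up to 0.330. Homozygous against heterozygous flies differed by -1.27 ± 0.50 (edgeR adjusted p = 0.163), and without homozygous replicate 3 by -2.26 (edgeR adjusted p = 3.29e-04). Homozygous against control flies differed by 0.09 ± 0.51 (95% interval -1.01 to 1.19; edgeR adjusted p = 0.925), with -0.90 without homozygous replicate 3 and -0.31 without control replicate 1. Hsp68 lies on 3R at 24055080 to 24057310 (reverse strand), 20.822 kb from the annotated span of Mettl3 at 24032157 to 24034257, so the region around the Ime4 allele and the genotype cannot be told apart for this gene.

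Hsc70-4, the cognate Hsp70 on 3R at 15242687 to 15246614, had 761, 916 and 959 CPM in control, 1034, 927 and 1000 in the heterozygous and 914, 880 and 1219 in homozygous replicates 1, 2 and 3. The groups overlapped and differed by little. The log2 value was 0.19 ± 0.14 for homozygous against control (95% interval -0.11 to 0.50; edgeR adjusted p = 0.375), 0.17 ± 0.14 for heterozygous against control (95% interval -0.14 to 0.47; adjusted p = 0.529) and 0.03 ± 0.14 for homozygous against heterozygous (95% interval -0.28 to 0.33; adjusted p = 0.945). With all 9 libraries a difference of 1.5-fold lies outside all 3 intervals.

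DnaJ-1, an Hsp40 protein that brings clients to Hsp70, lies on 3L at 5750029 to 5752189. It had 137, 261 and 436 CPM in control, 281, 376 and 321 in the heterozygous and 122, 106 and 427 in homozygous replicates 1, 2 and 3. Control and homozygous flies each ranged more than 3-fold, from values near 100 to values above 400. The log2 value for homozygous against control was -0.35 ± 0.45 (95% interval -1.31 to 0.61; edgeR adjusted p = 0.630). It was -1.29 without homozygous replicate 3 (edgeR adjusted p = 0.00216), 0.13 without control replicate 3 and 1.09 without homozygous replicates 1 and 2 and control replicate 3 (edgeR adjusted p = 0.00260). Which libraries were kept thus decided both the direction and the call.

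The inducible Hsp70 genes themselves, near-identical copies on 3R between which single reads cannot always be placed, had their high libraries where Hsp68 had them. Summed over the 6 copies there were 7.80, 28.1 and 42.0 CPM in control, 48.0, 81.8 and 107 in the heterozygous and 8.14, 7.55 and 86.1 in homozygous replicates 1, 2 and 3. Heterozygous libraries were again above all control libraries, and homozygous replicate 3 was with them. With edgeR 0 of the 4 tested copies were called in each comparison, 2 had an unadjusted p under 0.05 between heterozygotes and control, 1 between homozygotes and heterozygotes and 0 between homozygotes and control, and DESeq2 and limma-voom also called 0. Without homozygous replicates 1 and 2, which leaves 1 homozygous library, there were 5 tested copies, and 3 rose in heterozygous (14.5% of all genes called) and 3 in homozygous against control flies (13.1% of all genes called). For heterozygous against control flies Hsp70Bc was at 2.24 ± 0.70 (edgeR adjusted p = 0.0602) and Hsp70Aa at 2.15 ± 0.75 (adjusted p = 0.0929) on the log2 scale.

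Hsp83, the fly Hsp90 on 3L at 3192969 to 3197059, had 1065, 2133 and 2135 CPM in control, 2018, 2350 and 2759 in the heterozygous and 1310, 1231 and 1734 in homozygous replicates 1, 2 and 3. Every homozygous library was below every heterozygous library, and control replicate 1 was the lowest of all. Homozygous against heterozygous flies differed by -0.74 ± 0.23 on the log2 scale (95% interval -1.23 to -0.25; edgeR adjusted p = 0.0766). DESeq2 called this difference (adjusted p = 0.0154), as did edgeR without control replicate 1 (-0.74, adjusted p = 0.0211) and without homozygous replicate 3 (-0.90, adjusted p = 0.00873). EdgeR also called it with the replicate number as a block. Over the alternatives other than leaving out 1 library, the lowest edgeR adjusted p was 0.00720. Without homozygous replicates 1 and 2 the value was -0.49, and edgeR did not call it. The values against control were -0.32 ± 0.23 for homozygous (95% interval -0.81 to 0.17; edgeR adjusted p = 0.355) and 0.42 ± 0.23 for heterozygous flies (95% interval -0.07 to 0.91; adjusted p = 0.295). Without control replicate 1 the first was -0.59, with edgeR adjusted p = 0.0433.

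Per kb of exon, the order of the levels in control flies was Hsp83 at 600.5 ± 208, Hsc70-4 at 324 ± 38.3, DnaJ-1 at 129 ± 69.3, Hsp26 at 51.6 ± 38.6, Hsp23 at 29.8 ± 8.74, Hsp68 at 26.8 ± 15.8, Hsp27 at 13.6 ± 8.74 and Hsp67Bc at 7.53 ± 1.72 CPM per kb (SD, n = 3). The control libraries of Hsp83, between 359.8 and 721, did not overlap those of Hsc70-4, between 280 and 353, and both lay above all libraries of DnaJ-1, whose highest was 202. From DnaJ-1 downwards each neighbour in this order overlapped the next. In heterozygous flies Hsp68 reached 70.1 ± 18.9 CPM per kb, beside 73.9 ± 25.6 for Hsp26.

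The spread between libraries of one genotype differed widely among the members. The within-group SD of log2 CPM was 1.03 for Hsp26, 0.98 for Hsp68, 0.93 for Hsp27 and 0.81 for DnaJ-1, and 99.3%, 99.1%, 99.0% and 98.3% of tested genes had a smaller one. Hsp83 and Hsp23, both at 0.39, had a larger SD than 81.5% and 81.3% of genes. Hsp67Bc, at 0.21, and Hsc70-4, at 0.19, were below the median of all genes, 0.23. Hsf itself was among the steadiest transcripts, with an SD of 0.06 and levels between 37.0 and 41.5 CPM in all 9 libraries, and 0.669% of genes had a smaller SD.

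**Figure D4:**
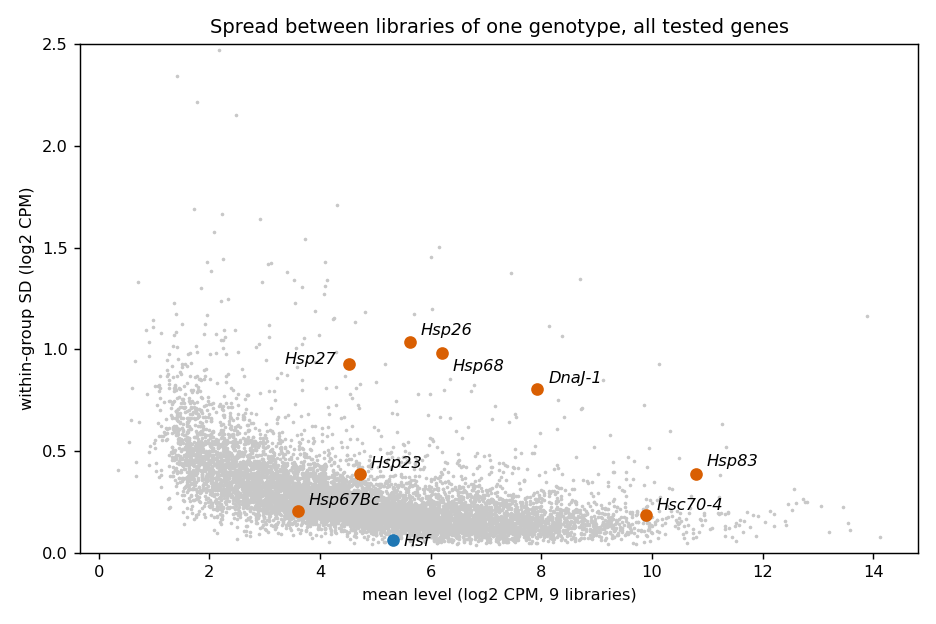
Each tested gene by its mean level (log2 CPM over 9 libraries) and its within-group SD (log2 CPM, 3 groups of 3 libraries); members in orange, Hsf in blue, all other genes in grey. Hsp26, Hsp68, Hsp27 and DnaJ-1 stand between 0.81 and 1.03, above most genes of the same level, and Hsf is at 0.06.

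The high and low libraries were largely the same for these genes. Control replicate 1 was the lowest control library in 7 of 8 members (34.9% of all tested genes), the exception being Hsp67Bc, and control replicate 3 the highest in 7 of 8 (35.7% of all genes). Among the heterozygous libraries replicate 1 was the lowest in 6 of 8 (31.8% of all genes) and replicate 3 the highest in 5 of 8 (34.4%). Among the homozygous libraries replicate 3 was the highest in 5 of 8 (37.5% of all genes), and replicates 1 and 2 were the lowest in 4 of 8 each (26.0% and 33.5%). A pattern chosen after its values were seen was that control replicate 1 and homozygous replicates 1 and 2 were the lowest 3 of the 9 libraries. It held for Hsp26, Hsp68, Hsp83, DnaJ-1 and, by a gap of only 0.0024 in log2 CPM, Hsc70-4, which are 5 of 8 members, for 4 of 4 tested inducible Hsp70 copies and for 144 of 8972 tested genes (1.6%). The genes are not independent of each other, and all share these 9 libraries.

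Of these 3 libraries, homozygous replicates 1 and 2 were those with 634 and 770 CPM summed over the 12 digestive genes, and control replicate 1 had 74.7 CPM, beside 77.8 in control replicate 2. The part of digestive transcripts in the pattern was not tested. No label tells what the 3 low libraries have in common.

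The genes whose profiles over the 9 libraries lay closest to each member differed between members. Likeness is the mean absolute gap in log2 CPM after each gene is centred on its own mean, over 6525 genes with at least 10 CPM. For Hsp26 the nearest were DnaJ-1 (0.29), Hsp27 (0.32) and Hsp68 (0.35), beside a median gap of 0.83 over all candidates. Hsp68 was nearest to Hsp26, Hsp70Ab (0.38) and Hsp70Aa (0.41). DnaJ-1 was nearest to Hsp26, the heat shock RNA lncRNA:Hsromega (0.35) and CG10345 (0.36), and Hsp27 to Hsp26, Hsp23 (0.40) and stv (0.44). Hsp83 and Hsp23 were within 0.16 of each other, with CG12643 and CG6225 also near Hsp83, and Lamtor3 and CG8187 near Hsp23. For Hsp67Bc the nearest genes were CG5112 (0.09), Fdx2 (0.11) and CG8389 (0.11), with no chaperone among them. Hsc70-4 spanned less than 1 log2 unit and was not compared.

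**Figure D5:**
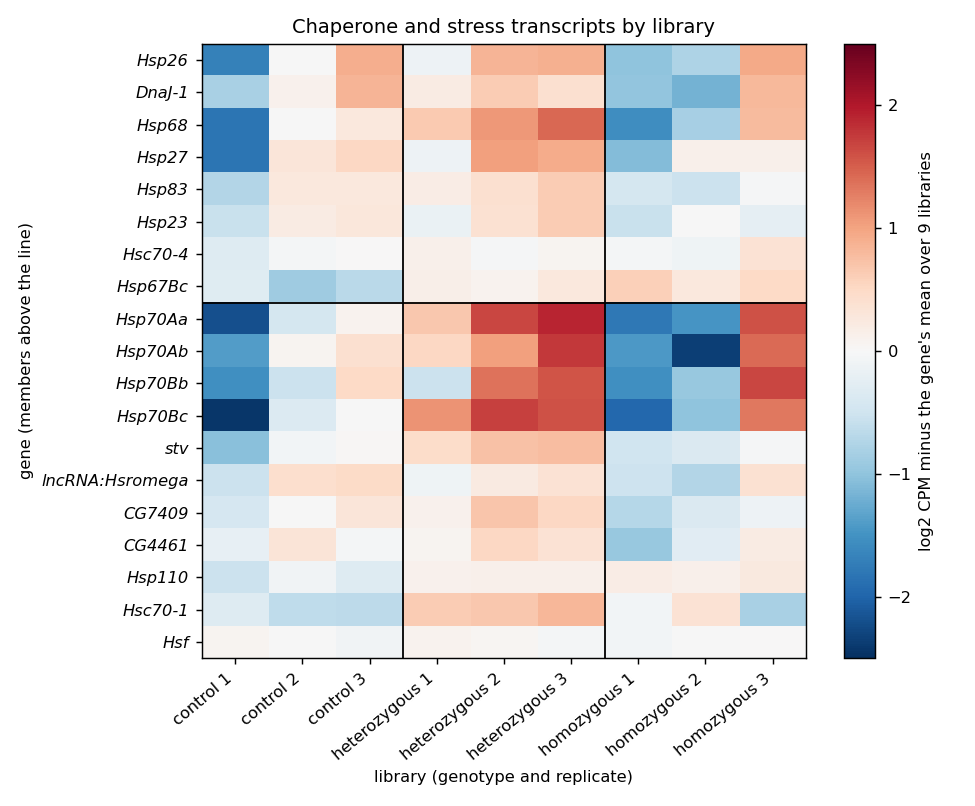
Log2 CPM of each gene minus its mean over the 9 libraries, red for above and blue for below, with members above the horizontal line and other chaperone and stress transcripts, picked after their values were seen, below it. Control replicate 1 and homozygous replicates 1 and 2 are blue for Hsp26, DnaJ-1, Hsp68 and the Hsp70 copies, Hsp67Bc follows the genotypes, and Hsf is near white throughout.

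Calls in the other chaperone families stand beside 19.7% of all genes called in homozygotes and 9.32% in heterozygotes against control, and 5.48% between homozygotes and heterozygotes. Of 4 further Hsp70 and Hsp110 genes tested, 2 rose in heterozygous against control flies. Hsc70-1, a cognate Hsp70 gene, had 22.7, 18.2 and 17.9 CPM in control, 44.6, 45.9 and 51.4 in the heterozygous and 27.1, 36.6 and 16.1 in homozygous replicates 1, 2 and 3, and its rise of 1.28 ± 0.24 (edgeR adjusted p = 0.00459) held in all 9 fits that left out 1 library. Against heterozygotes it fell in homozygotes by 0.84 ± 0.23 (edgeR adjusted p = 0.0476), a call near the threshold that was lost in 7 of those fits, all but the ones without homozygous replicate 2 or 3, with adjusted p up to 0.149. Hsp110, a nucleotide exchange factor of Hsp70, had 92.5, 127 and 108 CPM in control, 146, 147 and 148 in the heterozygous and 153, 148 and 159 in homozygous libraries. It rose by 0.49 ± 0.12 in homozygous against control flies (edgeR adjusted p = 0.0125; 0.39 with 0.0551 without control replicate 1), and by 0.43 in heterozygous against control (edgeR adjusted p = 0.0440), a call lost in the 6 fits that left out control replicate 1 or 3, any heterozygous replicate or homozygous replicate 1, with values from 0.33 to 0.43 and adjusted p up to 0.154.

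Starvin, encoded by stv and the BAG-domain partner of Hsp67Bc and Hsp70, had 120, 238 and 252 CPM in control, 342, 411 and 423 in the heterozygous and 175, 193 and 244 in homozygous replicates 1, 2 and 3. Heterozygous libraries lay above both other groups. The rise against control was 0.94 ± 0.22 on the log2 scale (edgeR adjusted p = 0.0160; 0.91 with 0.0721 without heterozygous replicate 2 and 0.89 with 0.0802 without heterozygous replicate 3), and homozygous against heterozygous flies fell by 0.94 ± 0.22 (edgeR adjusted p = 0.0226, lost in the 5 fits that left out any heterozygous replicate or homozygous replicate 1 or 2, with values from -1.05 to -0.86 and adjusted p up to 0.103). Of the 9 Hsp70 exchange factors and cochaperones, HIP, which steadies client-bound Hsp70, also changed, and fell by 0.60 in heterozygous (edgeR adjusted p = 0.0218) and by 0.43 in homozygous flies (adjusted p = 0.0494) against control. Both calls were lost without control replicate 2 or 3 or any heterozygous replicate, and the second also without homozygous replicate 3, with adjusted p up to 0.122 and 0.173.

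With edgeR 0 of 22 tested J-domain proteins other than DnaJ-1 were called in each of the 3 comparisons. Unadjusted p-values under 0.05 were found for 0 of them when homozygotes and 3 when heterozygotes were set against control, and for 4 between homozygotes and heterozygotes, and DESeq2 and limma-voom called 0. For the 7 tested subunits of TRiC, the chaperonin that folds actin and tubulin, edgeR, DESeq2 and limma-voom called 0 in each comparison, with 2, 0 and 1 unadjusted p-values under 0.05 in the same order. For 5 tested mitochondrial chaperones and proteases edgeR and limma-voom called 0, DESeq2 called 1, 1 and 0, and 1, 1 and 0 had an unadjusted p under 0.05. Of 12 Hsp90 cochaperones, nudC fell in homozygous against control flies by 0.50 (edgeR adjusted p = 0.0431, lost in the 7 fits that left out control replicate 2 or 3, any heterozygous replicate or homozygous replicate 1 or 2, at -0.65 to -0.41 over the 9 fits and with adjusted p up to 0.145). Of 6 other small heat shock proteins tested, CG7409 fell in homozygous against heterozygous flies by 0.85 ± 0.20 (edgeR adjusted p = 0.0250), and the value was -0.72 without heterozygous replicate 2, -0.84 without heterozygous replicate 3 and -0.72 without homozygous replicate 1, with edgeR adjusted p = 0.135, 0.0899 and 0.0821.

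Hsf was not called in any comparison. Its log2 value was -0.01 ± 0.13 in homozygous (95% interval -0.28 to 0.26) and 0.04 ± 0.13 in heterozygous against control flies (95% interval -0.23 to 0.31; edgeR adjusted p = 0.960 and 0.880). The level of an mRNA does not report the activity of Hsf, which is set by trimer formation and binding.

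Stress genes outside the heat shock families were called at shares to be read against all tested genes, of which 19.7% were called in homozygotes and 9.32% in heterozygotes against control, and 5.48% between homozygotes and heterozygotes. Of 17 endoplasmic reticulum folding genes tested, 4 rose in homozygotes and 1 in heterozygotes against control, 1 rose in homozygotes against heterozygotes, and 0 fell. Sec61beta, a subunit of the channel that secretory proteins enter, rose by 0.86 ± 0.18 (edgeR adjusted p = 0.00424), and sip3, a ubiquitin ligase of the reticulum, by 0.90 ± 0.17 (adjusted p = 0.00296) in homozygous against control flies, and both calls held in all 9 fits that left out 1 library. Of 17 oxidative stress genes, 5 were higher and 1 lower in homozygotes than in control by the test, 3 fell in heterozygotes, and 4 rose in homozygotes against heterozygotes. MtnA, a metal-binding metallothionein, rose by 1.19 ± 0.19 (edgeR adjusted p = 6.70e-04), the peroxidase gene Prx2 by 0.70 ± 0.11 (adjusted p = 7.46e-04) and Cat, encoding catalase, by 0.52 ± 0.12 (adjusted p = 0.00655) in homozygous against control flies, each in all 9 such fits. None of those fits removed both homozygous libraries with digestive transcripts, replicates 1 and 2. Relative to its mean log2 CPM, MtnA was at 1.05 and 0.82 in these and at 0.20 in homozygous replicate 3, beside -0.58 to -0.25 in control. The number of endoplasmic reticulum genes that rose in homozygotes against control was 2 without control replicate 2, homozygous replicate 1 or both homozygous libraries with digestive transcripts, and 6 without homozygous replicate 3. That of oxidative stress genes was between 3 (without control replicate 2 or homozygous replicate 2) and 6. Of the oxidative stress genes that fell in heterozygotes, 1 was left without control replicate 2 or 3 or any heterozygous replicate, and without any heterozygous replicate 1 was left of those higher in homozygotes than in heterozygotes. Of 6 other stress-responsive transcripts, Gadd45, induced by stress and DNA damage, fell by 0.84 in homozygous (edgeR adjusted p = 0.00322) and by 0.87 in heterozygous flies (adjusted p = 0.00525) against control, in all 9 such fits, and lncRNA:Hsromega, the noncoding RNA of a heat shock puff, was at -0.40 ± 0.28 in homozygous and -0.02 ± 0.28 in heterozygous flies and was not called.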

How the data were processed

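The deposited files held read counts per gene for 9 libraries of female heads. The labels' protocols give Trizol extraction, 2 rounds of oligo(dT) selection and a directional library kit. The submitters' processing notes name CASAVA 1.8.4, STAR 2.4.0h, HTSeq 0.6.1, DESeq2 1.6.3 and the build BDGP6. Whether counting used strand is not given in the sources used here. Of 129 genes whose exons lie wholly under opposite-strand exons, 103 had reads, against 17 of 431 under same-strand exons, so reads were assigned by strand. An Ensembl annotation of BDGP6 gave symbols, exon lengths and coordinates for 17252 of the 17558 IDs.

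From the counts, the steps run here were TMM scaling in edgeR 4.0.16 (R 4.3.3; factors 0.958 to 1.07), a filter on low counts (filterByExpr, minimum count 10, minimum total 15), and the quasi-likelihood test on the means of all 3 groups, with Benjamini-Hochberg adjustment over all genes tested. Log2 CPM used a prior count of 2. Alternatives were other size factors, other filters, DESeq2 1.42.0, limma-voom (limma 3.58.1), only the 6 libraries compared, a replicate block, a threshold of 0.01, an exon length correction and leaving out libraries. The code was tested on simulated counts. No 2 libraries of a group agreed within sampling noise (chi-square per degree of freedom 5.35 to 25.9). Named genes are all members, Ime4, Hsf, genes of like profile, and called members of the chaperone and stress lists, of which the text names part. Members and lists were chosen with earlier results of these data known. The list genes l(2)tid, l(3)80Fg, unc-45, CCT8, Pdi, Hsrbeta and wupA were not analysed here. Intervals of fold changes come from the fit, and no sequences are shown.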

Additional observations from a re-analysis of the deposited data

How the results depend on the processing

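The members called numbered 1 for homozygotes and 1 for heterozygotes against control, and 0 for homozygotes against heterozygotes. With no low-count filter the last 2 counts were 2 and 2, with DESeq2 0 and 1, and with only the 6 libraries compared 2 and 1. The threshold of 0.01 and the exon length correction each left 0 in heterozygous against control. Without homozygous replicates 1 and 2 and control replicate 3, which leaves 1 homozygous library, the first 2 were 5 and 4, and without homozygous replicates 1 and 2 alone, a fit chosen after seeing the data, heterozygous against control had 2. Leaving out 1 library in turn gave 1 to 2, 0 to 2 and 0 to 4. The cause of these changes was not tested.

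Directions turned for members that were not called, except where a p is given. In homozygous against control flies limma-voom gave -0.043 for Hsp68. Without homozygous replicates 1 and 2 and control replicate 3, that comparison gave 1.52 for Hsp26 (edgeR adjusted p = 0.00865), 0.46 for Hsp27, 0.12 for Hsp83 and 1.09 for DnaJ-1 (edgeR adjusted p = 0.00260), and homozygous against heterozygous gave 0.35 for Hsp26 and 0.39 for DnaJ-1. Without homozygous replicates 1 and 2 the values were 0.81 for Hsp26, 0.080 for Hsp27 and 0.59 for DnaJ-1 against control, and 0.31 for Hsp26 and 0.35 for DnaJ-1 against heterozygous flies. Over the fits that left out 1 library in turn or the 3 libraries together, homozygotes against control ranged from -1.03 to 1.52 for Hsp26, -0.62 to 0.46 for Hsp27, -0.90 to 1.42 for Hsp68, -0.59 to 0.12 for Hsp83 and -1.29 to 1.09 for DnaJ-1. DnaJ-1 ranged from -0.095 to 0.70 in heterozygotes against control, and in homozygotes against heterozygotes the ranges were -1.52 to 0.35 for Hsp26, -0.14 to 0.30 for Hsc70-4 and -1.51 to 0.39 for DnaJ-1.

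The replicate numbers do not pair the libraries by their labels, and deviations from the group means correlated at -0.0659 to 0.117 between libraries with the same number and at -0.114 to 0.114 between others. Outside its own group, 5 of 9 libraries correlated best with one of the same number. A fit with the replicate number as a block called 1 member in homozygotes and 3 in heterozygotes against control (the latter Hsp67Bc, Hsp27 at 0.83 and Hsp68 at 1.55) and 3 in homozygotes against heterozygotes (Hsp27 at -0.91, Hsp68 at -1.54 and Hsp83 at -0.73).

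Over all alternatives, 422 fold changes of members kept direction and side of the threshold, 26 newly passed it, 9 lost it and 23 turned. Depth limits the low members, with 21 to 74 reads per library for Hsp67Bc and as few as 16 for Hsp27, and no result here can speak for Hsp22.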
